A study of Mus musculus with 11 samples.

Results

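Pre-mRNA splicing factors were followed across 4 groups of late 2-cell mouse embryos. The set held every gene to which the array's annotation gave a single symbol beginning with Srsf, Sfrs, Hnrnp, Hnrp, Sf3a, Sf3b, U2af or Prpf, which was 62 of 21593 genes. These prefixes covered 76 probe sets, and the brightest probe set by mean over all 11 arrays stood for each of the 8 genes with several. The set includes probe sets 10380210 (Srsf1), 10551971 (U2af1l4), 10354704 (Sf3b1), 10479649 (Prpf6), 10450006 (Hnrnpm) and 10498185 (Tra2b). Another 7 probe sets with such a symbol carried several symbols and were left out, and 1 symbol, Sfrs5, occurred only there. The annotation's symbol was an older one for 20 genes, whose current symbols are used here. In the order of their roles the 62 were 8 SR proteins, 3 U2AF genes, 8 subunits of SF3A and SF3B, 13 PRPF factors, 20 hnRNPs and 10 further genes that the annotation called Sfrs.

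Each array measured RNA from 1 pool of 40 late 2-cell embryos, made from several mice and amplified by whole-transcriptome amplification. Every embryo came from an egg without Ring1, the controls included. Control eggs still carried Rnf2 (maternal Ring1- Rnf2+), and mutant eggs lacked both (maternal Ring1- Rnf2-). RING1 and RNF2 are the alternative E3 ligase subunits of Polycomb repressive complex 1, which places ubiquitin on histone H2A. Females of 5 to 10 weeks gave the eggs, collected 14 h after hCG and fertilized in vitro with wild type sperm of males of 10 to 16 weeks, on a mixed 129/Sv and C57BL/6J background. Embryos were untreated (3 control and 3 mutant arrays) or were given 24 µg/ml of the RNA polymerase II inhibitor α-amanitin from 6 h on and collected at 35 h, both counted from fertilization (3 control and 2 mutant arrays). Neither the harvest time of the untreated embryos nor the way Rnf2 was deleted in the egg is stated. The replicates are described as biological ones, and precision is limited by their number.

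Splicing removes introns from pre-mRNA in ordered steps. SR proteins bind exons and help recruit the splicing machinery, hnRNPs coat the transcript and often oppose or redirect them, U2AF reads the end of the intron, SF3A and SF3B hold the U2 particle at the branch point, and most PRPF factors belong to the U4/U6.U5 tri-snRNP or to the steps that activate it. An egg carries stored RNA for such housekeeping factors, and the mouse embryo begins its major wave of transcription at the 2-cell stage. An inhibitor of RNA polymerase II is used to hold back that new transcription. How complete the block was in these embryos was not tested.

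The labels were first checked on the targeted genes. Rnf2 had log2 values of 6.84, 6.59 and 6.70 on the untreated control arrays, 5.00, 5.17 and 5.08 on the untreated mutant arrays, 7.31, 6.89 and 7.02 on the treated control arrays, and 5.18 and 5.24 on the treated mutant arrays, so both mutant groups lay below both control groups. Ring1 lay between 4.35 and 4.79 on all 11 arrays, close to the array medians of 4.45 to 4.55. All 10 measured oocyte and early embryo markers of 12 listed had group means over 6 in each group, and no sperm marker of 12 had a group mean over 6. The sum of the 10 oocyte log2 values was 76.9 to 78.7 in untreated controls, 82.8 to 84.8 in untreated mutants, 80.8 to 83.0 in treated controls, and 84.1 and 88.1 in treated mutants, and 7 of the 10 were called higher in untreated mutants than in untreated controls, against 8.72% of all genes, while Zp3 was lower by 0.51 ± 0.14 (adjusted p = 0.026). The sum over 6 measured 2-cell markers of 9 listed was 40.0 to 40.6, 40.0 to 42.4, 29.3 to 29.6, and 29.8 and 31.8 in the same order. The like untreated sums held opposite differences. In untreated mutants Tdpoz1, Eif1a and Sp110 were lower, by 0.75 ± 0.22, 0.83 ± 0.12 and 0.98 ± 0.22, and Gm4340 was higher by 2.83 ± 0.19 (adjusted p = 0.031, 0.000646, 0.00863 and 7.17e-06). The sum over 18 cumulus and granulosa markers was 84.8 to 86.3, 82.4 to 84.2, 79.5 to 81.1, and 82.5 and 84.1, with array medians of 4.29 to 4.47 and no marker at 0. Of these 18, 3 had a group mean over 6 in untreated controls, 1 in each mutant group and 0 in treated controls. Amhr2, Gja1 and Nr5a2 fell by 1.68 ± 0.12, 2.01 ± 0.13 and 1.52 ± 0.18 in untreated mutants (adjusted p = 8.54e-06, 7.14e-06 and 0.000119). In controls they were higher untreated than treated by 2.0953 ± 0.12, 2.58 ± 0.13 and 2.0985 ± 0.18, so these 3 moved in the direction of most splicing genes. Ptgs2 and Cyp19a1 went the other way, higher in untreated mutants by 1.30 ± 0.15 and 0.44 ± 0.12 (adjusted p = 9.6e-05 and 0.0233). Ptgs2 was also higher in treated mutants, by 1.32 ± 0.16 (adjusted p = 0.000795). Thus 3 of the 18 were lower and 2 higher in untreated mutants, against 16.6% and 8.72% of all genes. The share of probe sets over log2 6 was 15.1% to 16.1% in untreated controls, 11.9% to 12.9% in untreated mutants, 11.2% to 12.6% in treated controls, and 11.0% and 14.2% in treated mutants. The part of these differences in the results on splicing genes was not tested.

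Splicing factor RNA was highest in untreated control embryos and lowest in control embryos with α-amanitin, and both mutant groups lay between them. The median log2 value over the 62 genes was 6.42 to 6.55 on the untreated control arrays, 5.67 to 5.87 on the untreated mutant arrays and 5.34 to 5.40 on the treated control arrays. On the treated mutant arrays it was 5.69 and 5.94, which overlapped the untreated mutants and no other group. Not every family kept this order. The U2AF median overlapped between the untreated genotypes (5.91 to 6.18 in controls, 5.92 to 5.99 in mutants), the SF3A and SF3B median on 1 treated mutant array (6.21) lay above all untreated controls (5.82 to 6.11), and the median of the further Sfrs-named genes overlapped in the other 3 groups. A log2 value here is a level among the RNAs of the same array, and in a pool fewer embryos with a transcript and less transcript per embryo cannot be told apart.

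**Figure D1:**
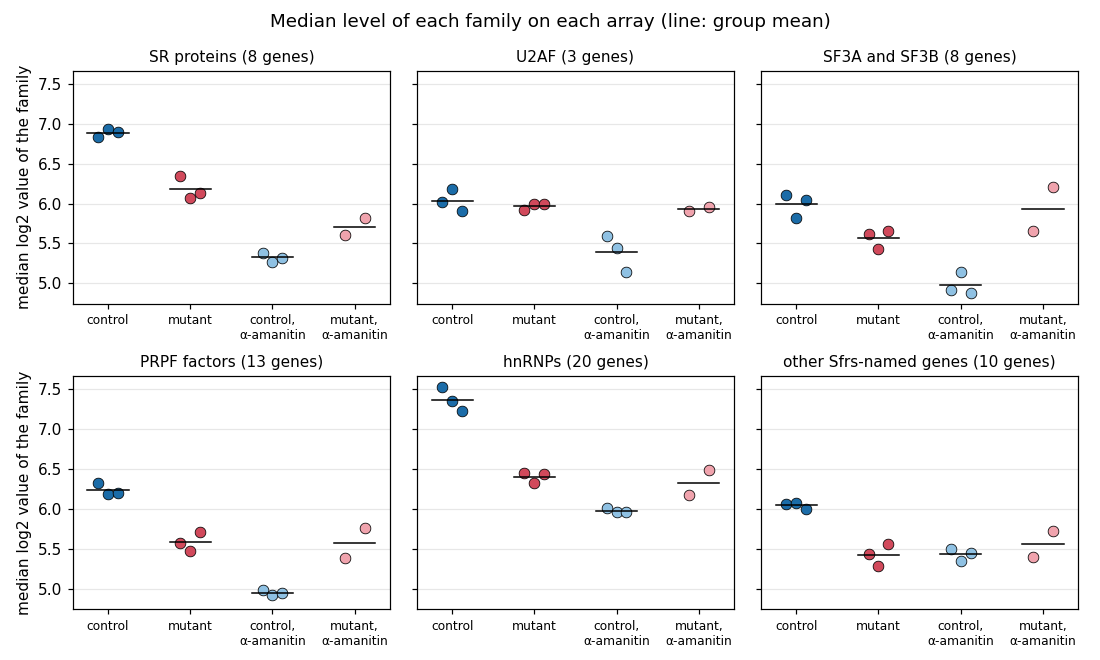
Median log2 value of each of the 6 gene families (y axis) on every array, with the arrays grouped by genotype and treatment (x axis). Points are single arrays and lines are group means. For the hnRNPs the 3 untreated control arrays sit between 7.22 and 7.53, above all other arrays.

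Without the inhibitor, most of these genes were lower in mutant embryos. In limma's test, with p-values adjusted by the Benjamini-Hochberg method over all 34760 probe sets and a threshold of 0.05, 41 of the 62 genes were lower in untreated mutants than in untreated controls, against 16.6% of all genes, and 1 was higher, against 8.72%. The median log2 difference (mutant minus control) was -0.60 over the 62 genes and 0.01 over all genes. The 41 held 16 of 20 hnRNPs, 10 of 13 PRPF factors, 6 of 8 SR proteins, 6 of 10 further Sfrs-named genes, 2 of 8 SF3 subunits and 1 of 3 U2AF genes. On 50 genes every mutant array read lower than every control array, against 23.1% of all genes. For such a gene the exact permutation test gives 0.1, the smallest p that 3 arrays against 3, or 3 against 2, allow. After quantile normalization of the arrays 29 genes were lower and 3 higher.

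With α-amanitin the median over the set lay the other way, though to an unlike extent by family. The mutant minus control difference had a median of 0.21 over the 62 genes and 0.02 over all genes. It was 0.75 in SF3A and SF3B, 0.54 in U2AF and 0.42 in the PRPF factors. In the hnRNPs it was 0.09, in the SR proteins 0.06 and in the further Sfrs-named genes 0.04. Here 15 of the 62 were higher in mutants, against 6.95% of all genes, and 1 was lower, against 4.02%. On 29 genes both mutant arrays read above every control array, against 19.6% of all genes, and on 11 both read below, against 13.7%. The 15 were 5 of 8 SF3 subunits, 5 PRPF factors, 2 U2AF genes, and Srsf2, Hnrnph1 and Pnisr. Under quantile normalization the split was 19 higher and 6 lower. Without treated mutant replicate 1 the count higher was 23, and without treated mutant replicate 2 it was 10, with the remaining array taken to vary like those of the other groups.

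In control embryos most of these genes were lower with α-amanitin. Of the 62 genes, 45 were higher untreated than treated, against 19.4% of all genes, and 2 were lower, against 14.2%, with a median difference (untreated minus treated) of 0.94 over the 62 and -0.04 over all genes. Quantile normalization gave 41 higher and 9 lower. In mutant embryos the same treatment left a median difference of -0.02, against -0.03 over all genes, with 5 of the 62 called higher untreated, against 2.59% of all genes, and 2 lower, against 1.09%. Quantile normalization gave 7 and 5 there. The test of the difference between genotypes in their response, the interaction, called 39 of 62 genes lower, against 13.6% of all genes, and 1 higher, against 4.2%. Its median was -0.91 over the 62 and -0.0026 over all genes, and quantile normalization gave 33 lower and 5 higher. The 5 comparisons share arrays, since the untreated controls enter the genotype and the treatment comparison alike.

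**Figure D2:**
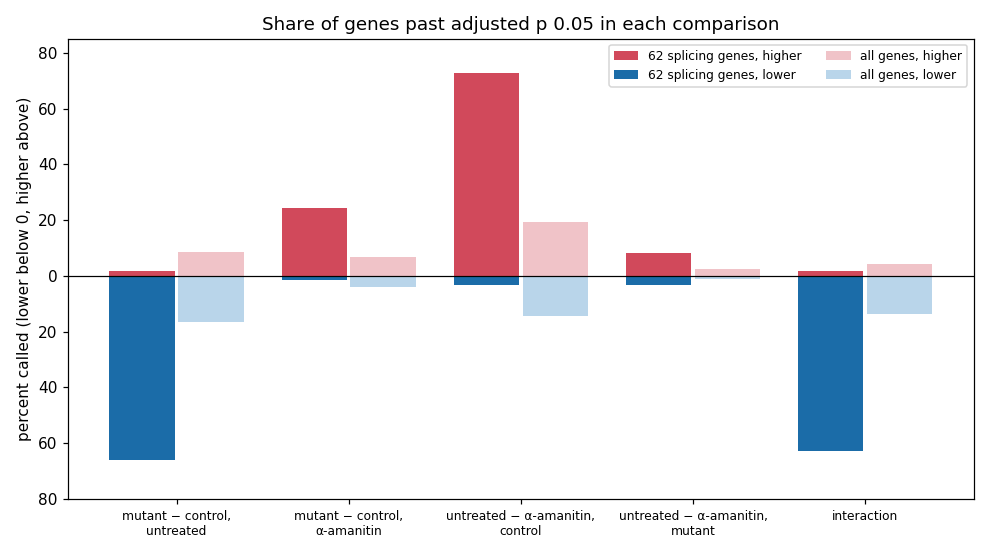
Percent of the 62 splicing genes and of all 21593 genes past an adjusted p of 0.05 in each of the 5 comparisons. Bars above 0 count genes higher in the first-named group and bars below 0 genes lower. In untreated embryos 66.1% of the splicing genes were lower in mutants, and 16.6% of all genes.

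**Figure D3:**
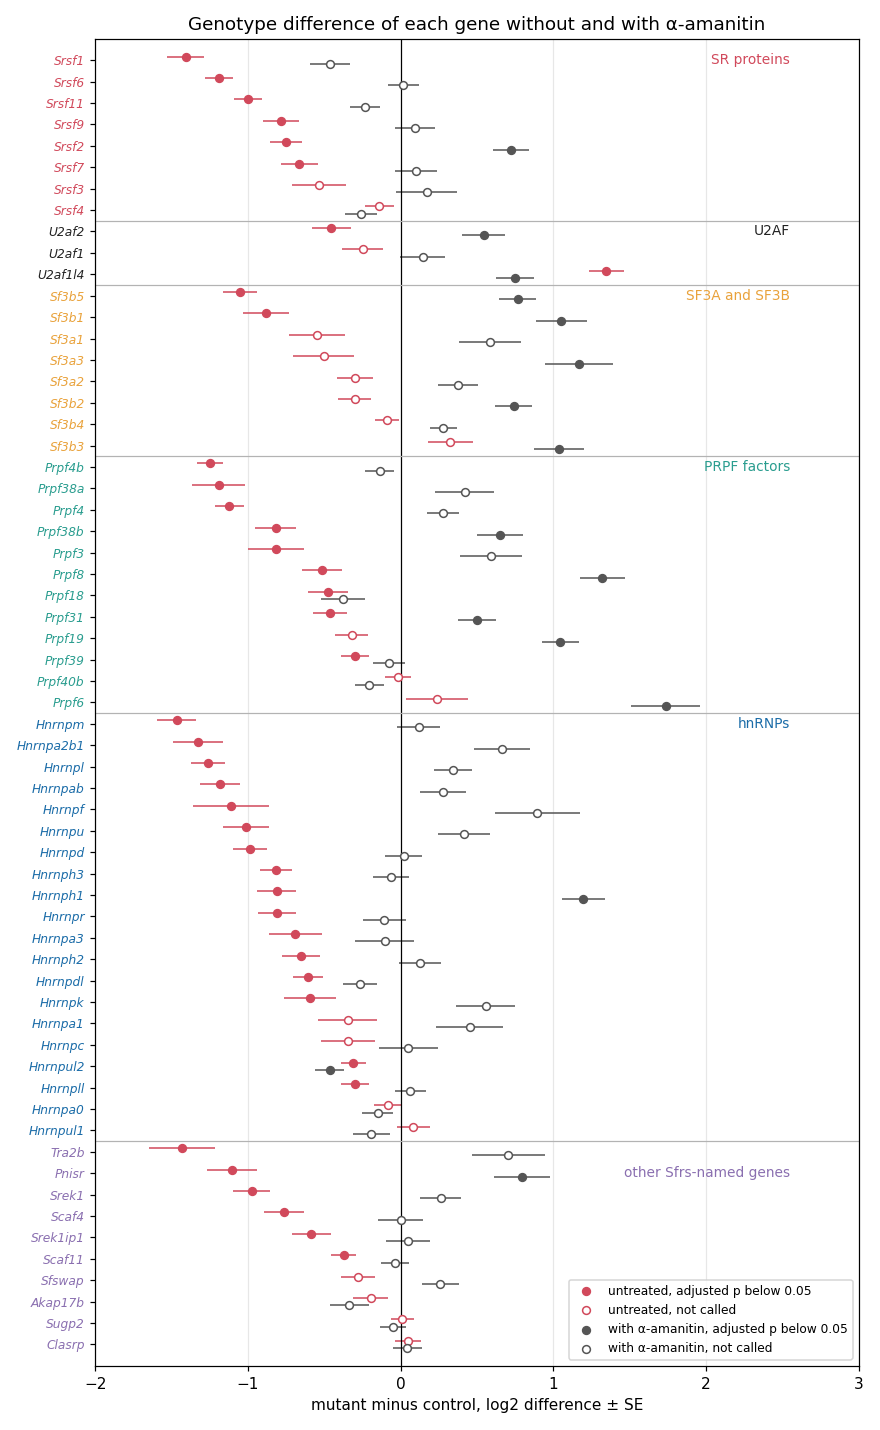
Mutant minus control log2 difference with its standard error (x axis) for 61 of the 62 genes (y axis, by family), without the inhibitor in red and with α-amanitin in grey. Filled points passed an adjusted p of 0.05. Most red points lie left of 0, U2af1l4 lies right of it in both, and the filled grey points lie right of 0 except Hnrnpul2.

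Promoter sequences are shown for 4 genes whose response differed, the U2AF small subunit pair U2af1 and U2af1l4, Srsf7 and Prpf6. RefSeq promoters (250 bases before to 50 after each start, build GRCm38.p6) were found for 53 of the 62 genes, with 73 starts in all. The 9 without an entry included Hnrnpul2, Pnisr, Sf3b5 and U2af2. Capitals mark matches, on either strand, to the ETS motif CCGGAAG, the NRF1 motif (GCGCA, any base, GCGC) and the Sp1 box GGGCGG. U2af1 is at chr17:31658705-31659004 on the minus strand, U2af1l4 at chr7:30563090-30563389 on the plus strand, Srsf7 at chr17:80207256-80207555 on the minus strand and Prpf6 at chr2:181601069-181601368 on the plus strand.
U2af1: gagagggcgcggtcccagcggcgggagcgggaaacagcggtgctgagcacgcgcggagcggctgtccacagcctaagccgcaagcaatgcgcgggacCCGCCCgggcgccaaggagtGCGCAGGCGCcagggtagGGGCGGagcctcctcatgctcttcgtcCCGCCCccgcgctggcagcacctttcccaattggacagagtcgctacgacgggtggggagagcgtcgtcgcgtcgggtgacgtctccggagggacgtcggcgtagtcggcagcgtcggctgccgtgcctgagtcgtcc
U2af1l4: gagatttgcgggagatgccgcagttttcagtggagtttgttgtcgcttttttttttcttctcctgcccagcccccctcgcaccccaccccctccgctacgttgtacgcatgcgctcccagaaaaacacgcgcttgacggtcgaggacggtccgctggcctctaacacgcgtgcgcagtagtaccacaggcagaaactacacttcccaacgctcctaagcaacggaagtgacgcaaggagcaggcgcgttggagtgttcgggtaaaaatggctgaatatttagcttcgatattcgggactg
Srsf7: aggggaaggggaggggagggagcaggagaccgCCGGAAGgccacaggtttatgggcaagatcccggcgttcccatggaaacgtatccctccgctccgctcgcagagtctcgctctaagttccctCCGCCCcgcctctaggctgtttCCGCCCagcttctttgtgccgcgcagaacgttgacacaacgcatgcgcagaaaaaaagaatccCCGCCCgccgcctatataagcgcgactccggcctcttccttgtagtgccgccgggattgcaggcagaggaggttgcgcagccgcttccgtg
Prpf6: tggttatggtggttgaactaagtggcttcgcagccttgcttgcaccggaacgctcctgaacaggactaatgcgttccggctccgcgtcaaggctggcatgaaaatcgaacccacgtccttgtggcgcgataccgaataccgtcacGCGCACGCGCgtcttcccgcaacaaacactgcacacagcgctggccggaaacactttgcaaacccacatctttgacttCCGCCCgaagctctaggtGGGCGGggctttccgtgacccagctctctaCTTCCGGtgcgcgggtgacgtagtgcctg
The U2af1 window held 1 NRF1 motif and 3 Sp1 boxes, Srsf7 held 1 ETS motif and 3 Sp1 boxes, and Prpf6 held 1 ETS motif, 1 NRF1 motif and 2 Sp1 boxes. The U2af1l4 window held none of the 3 in these exact letters, and near matches were not counted. This was not particular to U2af1l4. Every listed window of Prpf4 and Hnrnpa2b1, among others, also held none of the 3. These genes were lower in untreated mutants, with differences of -1.12 and -1.33. Over the 73 promoters of the set the ETS motif was found in 32.9%, against 8.86% of all 32851 promoters, the NRF1 motif in 21.9% against 4.6%, and the Sp1 box in 68.5% against 35.7%. The TATA box TATAAA was found in 8.22% against 13.6%, and the CCAAT box in 46.6% against 37.4%. The CRE core TGACG was found in 47.9% against 20.8%. Matches of different motifs may overlap, and those to the last 3 are not in capitals. The median GC content was 61.7% in the set and 52.7% in all, and the median number of CpG was 27 and 7. These are matches to letters and not sites of binding, and several starts of a gene share sequence.

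Among the SR proteins, RNA-binding proteins with a domain rich in arginine and serine, Srsf1, the founding member of the family, had the largest genotype difference. Srsf1 read 8.02, 7.83 and 7.69 in untreated controls, 6.60, 6.26 and 6.45 in untreated mutants, 6.45, 6.33 and 6.16 in treated controls and 5.81 and 5.89 in treated mutants. The untreated controls stood above every other array, and the treated mutants were the lowest. Srsf1 fell by 1.41 ± 0.12 in untreated mutants (2.66-fold, adjusted p = 2.07e-05), and with the inhibitor its difference of -0.46 ± 0.13 was not called (adjusted p = 0.0578). In untreated embryos Srsf6 was at 6.46, 6.56 and 6.38 in controls and 5.38, 5.11 and 5.33 in mutants, and with α-amanitin at 4.92, 4.99 and 4.87 in controls and 4.94 and 4.94 in mutants. Srsf6 is another binder of exonic enhancers. The untreated mutants lay between the untreated controls and the treated arrays, and the treated genotypes overlapped. It fell by 1.19 ± 0.09 in untreated mutants (adjusted p = 1.16e-05), and the treated difference was 0.02 ± 0.10 (adjusted p = 0.967). Srsf11, a less typical SR protein, was at 6.08, 6.16 and 6.02 in untreated controls, 5.12, 5.12 and 5.02 in untreated mutants, 4.91, 5.11 and 4.94 in treated controls and 4.64 and 4.86 in treated mutants. The untreated controls stood far above the other 3 groups, and Srsf11 fell by 1.0013 ± 0.09 in untreated mutants (adjusted p = 2.67e-05).

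Srsf2 and Srsf7 were called between untreated and treated embryos in both genotypes, in mutants with a call of Srsf2 (0.49 ± 0.12, adjusted p = 0.0447) that was lost in 15 alternatives. Srsf2, also known as SC35 and a marker of nuclear speckles, was at 6.97, 6.90 and 7.09 in untreated controls and 6.29, 6.13 and 6.28 in untreated mutants. With the inhibitor it was at 4.98, 5.02 and 5.07 in controls and 5.56 and 5.93 in mutants, so no 2 groups overlapped. Srsf2 was the SR protein called in both genotype comparisons, lower by 0.75 ± 0.10 untreated (adjusted p = 0.000353) and higher by 0.72 ± 0.12 with the inhibitor (adjusted p = 0.00315). The log2 values of Srsf7 were 6.70, 6.96 and 6.72 in untreated controls and 4.83, 4.67 and 4.68 in treated ones, and 6.39, 6.01 and 5.99 in untreated mutants and 4.76 and 4.89 in treated ones. Srsf7, an SR protein with a zinc knuckle that also serves mRNA export, thus lay near the array median in both treated groups, which overlapped. Its untreated minus treated difference was 2.07 ± 0.12 in controls (adjusted p = 3.64e-07) and 1.30 ± 0.14 in mutants (adjusted p = 0.000562). The genotype call of Srsf7 in untreated embryos was lost after quantile normalization (difference -0.28, adjusted p = 0.132). Srsf9 was lower untreated by 0.79 ± 0.12 (adjusted p = 0.000578). Srsf3 (-0.53 ± 0.18, adjusted p = 0.0583) and Srsf4 (-0.14 ± 0.09, adjusted p = 0.387) were not called, and Srsf4 had its highest mean in treated controls, at 7.54, 7.40 and 7.29.

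The U2AF pair recognises the end of the intron, U2af2 the pyrimidine tract and U2af1 the AG that follows, and U2af1l4 is a paralogue of U2af1. For U2af2 the control arrays gave 6.18, 6.31 and 6.55 untreated and 5.59, 5.44 and 5.14 treated, and the mutant arrays 5.86, 5.99 and 5.82 and 5.91 and 5.95. The untreated controls stood highest and the treated controls lowest, with both mutant groups together between them. U2af2 was lower in untreated mutants by 0.45 ± 0.13 (adjusted p = 0.0265) and higher in treated mutants by 0.54 ± 0.14 (adjusted p = 0.038). The first was lost after quantile normalization, after cyclic loess, with the replicate block, without untreated control replicate 2 or 3 and without untreated mutant replicate 1 or 3 (differences of -0.11 to -0.47), and the second was lost under 12 alternatives (differences of 0.42 to 0.57). Those 12 included leaving out any 1 of 7 arrays, untreated control replicate 2, untreated mutant replicate 1 or 3, treated control replicate 2 or 3, and treated mutant replicate 1 or 2.

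The small subunit and its paralogue moved apart. U2af1 read 6.02, 6.18 and 5.91 in untreated controls, 5.92, 5.44 and 5.99 in untreated mutants, 4.67, 4.64 and 4.66 in treated controls and 4.81 and 4.79 in treated mutants. The untreated genotypes of U2af1 overlapped, and both treated groups lay far lower. U2af1 was not called between genotypes (-0.25 ± 0.13 untreated, adjusted p = 0.257; 0.14 ± 0.15 treated, adjusted p = 0.739), and it fell with α-amanitin in controls by 1.38 ± 0.13 (adjusted p = 1.24e-05) and in mutants by 0.99 ± 0.15 (adjusted p = 0.00493). In untreated embryos U2af1l4 was at 5.32, 5.51 and 5.29 in controls and 6.85, 6.78 and 6.55 in mutants, and with α-amanitin at 6.33, 6.14 and 6.06 in controls and 6.82 and 7.03 in mutants. Here the order was reversed, with the untreated controls lowest and both mutant groups highest. U2af1l4 was the one member called higher in mutants in both genotype comparisons, by 1.35 ± 0.11 untreated (2.54-fold, adjusted p = 1.99e-05) and by 0.75 ± 0.13 with the inhibitor (adjusted p = 0.00424). In controls it was lower untreated than treated by 0.80 ± 0.11 (adjusted p = 0.000232). It was also the 1 member with a positive call in the interaction, 0.60 ± 0.17 (adjusted p = 0.0383), which was lost with the trend prior, with array weights and without any 1 of 7 arrays (differences of 0.49 to 0.62): untreated control replicate 1 or 3, untreated mutant replicate 1 or 2, treated control replicate 1 or 2, and treated mutant replicate 1.

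**Figure D4:**
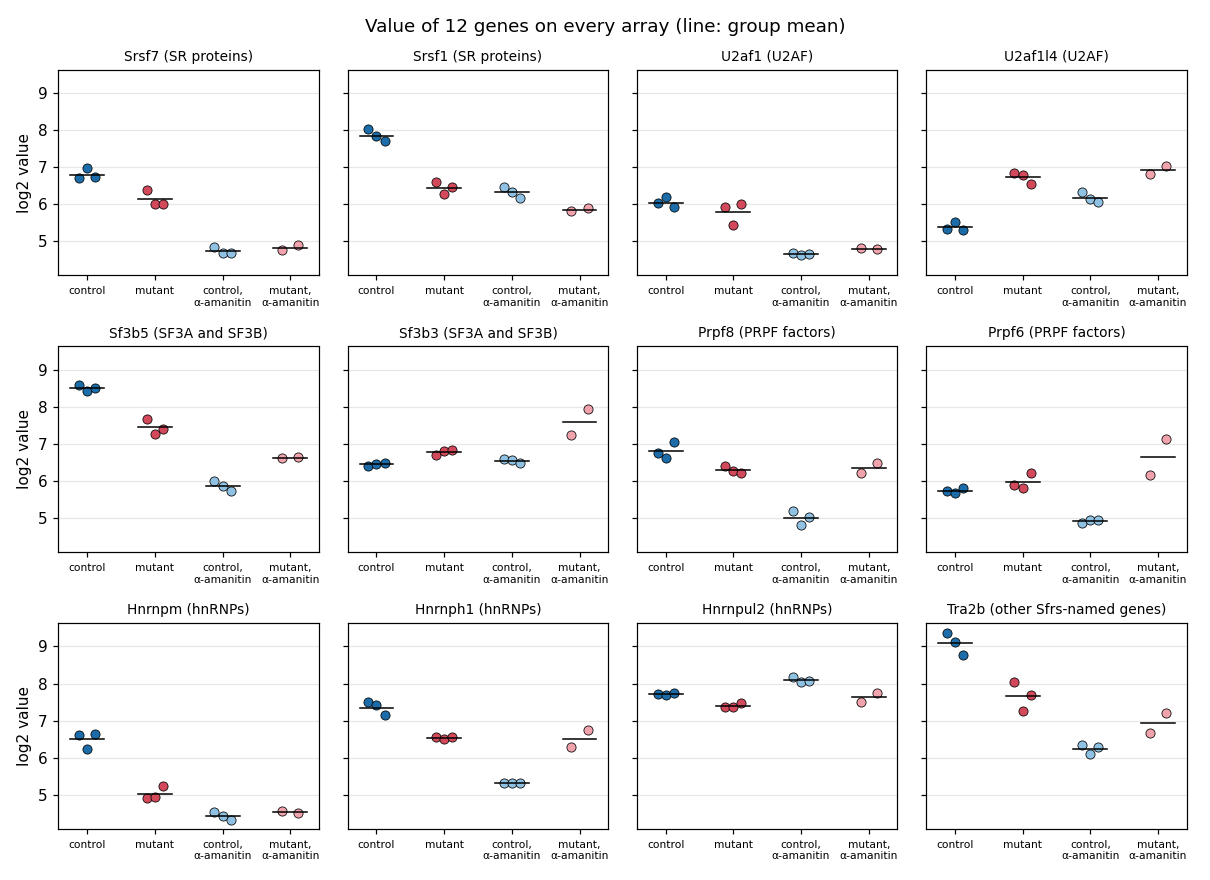
Log2 value (y axis) of 12 genes on every array, grouped by genotype and treatment (x axis); points are arrays and lines group means. U2af1l4 is lowest in untreated controls (5.29 to 5.51), while Srsf7, Sf3b5, Hnrnpm and Tra2b are highest there.

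SF3A and SF3B are subcomplexes of the U2 snRNP, and their subunits had the largest family median difference between treated genotypes, 0.75. In treated mutants 5 of 8 were called higher, against 6.95% of all genes. The U2AF genes had 2 of 3 called higher there, and the PRPF factors 5 of 13. Sf3b1, the large subunit that clamps the branch site, is considered first. The log2 values of Sf3b1 were 8.12, 7.97 and 8.09 in untreated controls and 6.44, 6.21 and 6.42 in treated ones, and 7.31, 6.92 and 7.31 in untreated mutants and 7.13 and 7.69 in treated ones. No group overlapped with another except the mutants, whose treated replicate 1 lay within the untreated range. Sf3b1 was lower untreated by 0.88 ± 0.15 (adjusted p = 0.00148) and higher with the inhibitor by 1.05 ± 0.17 (adjusted p = 0.00317). Sf3b5, the small subunit of SF3B, had the largest untreated minus treated difference in the family. For Sf3b5 the control arrays gave 8.58, 8.41 and 8.50 untreated and 5.99, 5.87 and 5.73 treated, and the mutant arrays 7.66, 7.26 and 7.41 and 6.61 and 6.65. Its 4 groups did not overlap, with the untreated controls highest and the treated controls lowest. The untreated minus treated difference was 2.63 ± 0.11 in controls (6.19-fold, adjusted p = 1.01e-07) and 0.81 ± 0.12 in mutants (adjusted p = 0.00502). The second call was lost when only those 2 groups were fitted (adjusted p = 0.0978). Sf3b5 was lower untreated by 1.05 ± 0.11 and higher treated by 0.77 ± 0.12 in mutants (adjusted p = 6.38e-05 and 0.00329).

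Sf3a3 and Sf3b3 were called between genotypes with α-amanitin and not without it. Sf3a3 read 6.63, 6.11 and 6.28 in untreated controls, 5.88, 5.67 and 5.95 in untreated mutants, 4.94, 5.25 and 4.90 in treated controls and 5.81 and 6.59 in treated mutants. Sf3a3, a subunit of SF3A, was thus lowest in treated controls. It was higher in treated mutants by 1.17 ± 0.22 (adjusted p = 0.00772), a call lost without treated mutant replicate 2 (0.78, adjusted p = 0.057) and with only the groups compared (adjusted p = 0.0685). Sf3b3, a scaffold subunit of SF3B, was at 6.41, 6.46 and 6.49 in untreated controls, 6.70, 6.81 and 6.83 in untreated mutants, 6.59, 6.57 and 6.48 in treated controls and 7.23 and 7.94 in treated mutants. Both treated mutant arrays were above all others. The treated genotype difference was 1.04 ± 0.16 (adjusted p = 0.00284; 0.0627 with only the groups compared). In mutants Sf3b3 was lower untreated than treated by 0.80 ± 0.16 (adjusted p = 0.0233), a call lost with only the groups compared, without untreated mutant replicate 1 or 3 and without treated mutant replicate 2 (differences of -0.45 to -0.83). Sf3b2 was higher in treated mutants by 0.74 ± 0.12 (adjusted p = 0.00366). Sf3a1 (0.59 ± 0.21, adjusted p = 0.122), Sf3a2 (0.37 ± 0.13, adjusted p = 0.122) and Sf3b4 (0.28 ± 0.09, adjusted p = 0.083) were not called there.

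Of the 13 PRPF factors 10 were lower in untreated mutants and 5 higher in treated mutants, with 3 called in both. Prpf4b, a kinase of the tri-snRNP, was among those lower in untreated mutants. The log2 values of Prpf4b were 6.25, 6.19 and 6.19 in untreated controls and 4.97, 4.82 and 4.96 in treated ones, and 5.02, 4.82 and 5.05 in untreated mutants and 4.76 and 4.79 in treated ones. The untreated controls stood alone, with the other groups close together. Prpf4b fell by 1.25 ± 0.08 in untreated mutants (2.38-fold, adjusted p = 7.4e-06), while its treated difference of -0.14 ± 0.09 was not called (adjusted p = 0.537). Prpf38a, a factor that joins with the tri-snRNP, was at 7.36, 7.23 and 7.30 in untreated controls, 6.25, 5.84 and 6.21 in untreated mutants, 5.36, 5.43 and 5.17 in treated controls and 5.38 and 6.11 in treated mutants. The untreated controls were again apart, and 1 treated mutant array reached the untreated mutants. It fell by 1.19 ± 0.17 (adjusted p = 0.000496). For Prpf4 the control arrays gave 6.61, 6.56 and 6.57 untreated and 4.77, 4.99 and 4.84 treated, and the mutant arrays 5.57, 5.32 and 5.48 and 5.07 and 5.23. Prpf4, a component of the U4/U6 particle, kept its 4 groups apart. It fell by 1.12 ± 0.09 in untreated mutants (adjusted p = 1.88e-05).

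Prpf8, Prpf6 and Prpf19 held more RNA in treated mutants than in treated controls. Prpf8, the scaffold of the U5 particle and of the catalytic centre, was at 6.74, 6.63 and 7.05 in untreated controls, 6.39, 6.27 and 6.22 in untreated mutants, 5.20, 4.81 and 5.02 in treated controls and 6.20 and 6.47 in treated mutants. The treated controls were the lowest group. Its treated genotype difference was 1.32 ± 0.15 (2.50-fold, adjusted p = 0.000448). Its untreated fall of 0.52 ± 0.13 (adjusted p = 0.0182) was lost after quantile normalization (-0.12, adjusted p = 0.673) and on leaving out untreated control replicate 3 or untreated mutant replicate 2 or 3 (-0.39 to -0.50). Prpf6 read 5.73, 5.68 and 5.80 in untreated controls, 5.90, 5.80 and 6.22 in untreated mutants, 4.86, 4.95 and 4.94 in treated controls and 6.17 and 7.14 in treated mutants. Prpf6, which bridges the U5 and U4/U6 particles, was highest on a treated mutant array, and the pair of treated mutant arrays differed by more than the other groups' ranges. The treated difference was 1.74 ± 0.23 (3.33-fold, adjusted p = 0.001), the largest of the 62 there, and the untreated difference of 0.24 ± 0.20 was not called (adjusted p = 0.514). Prpf19, the ubiquitin ligase of the complex named after it, was at 5.95, 5.79 and 5.91 in untreated controls, 5.49, 5.48 and 5.71 in untreated mutants, 5.10, 4.89 and 4.93 in treated controls and 5.86 and 6.18 in treated mutants. The treated controls were lowest. Its treated difference was 1.05 ± 0.12 (adjusted p = 0.000538) and its untreated one -0.32 ± 0.11 (adjusted p = 0.0642). Prpf31 and Prpf38b were lower untreated and higher treated, with the treated calls lost in 7 and 5 alternatives, and the untreated call of Prpf31 in 2. Prpf3, Prpf18 and Prpf39 were called lower untreated and not treated, with the calls of Prpf18 and Prpf39 lost in 5 and 10 alternatives. Prpf40b lay between 4.26 and 4.64 on every array, at the array medians, and passed no test.

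Of the hnRNPs, which bind nascent transcripts in the nucleus, 16 of 20 were lower in untreated mutants and Hnrnph1 was the 1 called higher in treated mutants. Hnrnpm, a regulator that binds GU-rich RNA, had the largest untreated fall of all 62 genes. In untreated embryos Hnrnpm was at 6.61, 6.24 and 6.64 in controls and 4.91, 4.94 and 5.23 in mutants, and with α-amanitin at 4.53, 4.43 and 4.33 in controls and 4.57 and 4.52 in mutants. The treated groups overlapped near the array median, and the untreated controls were far above them. Hnrnpm fell by 1.47 ± 0.13 in untreated mutants (2.77-fold, adjusted p = 2.1e-05), and the treated difference was 0.12 ± 0.14 (adjusted p = 0.785). Hnrnpl, which binds CA-rich RNA, was at 7.75, 7.45 and 7.68 in untreated controls, 6.48, 6.27 and 6.36 in untreated mutants, 5.88, 5.89 and 5.62 in treated controls and 6.06 and 6.22 in treated mutants. All 4 groups were apart. It fell by 1.26 ± 0.11 in untreated mutants (adjusted p = 2.54e-05). The log2 values of Hnrnpa2b1 were 7.18, 6.94 and 7.09 in untreated controls and 5.09, 5.10 and 5.10 in treated ones, and 5.86, 5.58 and 5.79 in untreated mutants and 5.38 and 6.15 in treated ones. Hnrnpa2b1, of the A/B core group, was steady in treated controls and spread in treated mutants. It fell by 1.33 ± 0.17 untreated (adjusted p = 0.000181), and its interaction was -1.99 ± 0.25 (adjusted p = 0.000385).

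Hnrnph1 and Hnrnpf are close relatives that bind runs of G. For Hnrnph1 the control arrays gave 7.50, 7.42 and 7.14 untreated and 5.32, 5.33 and 5.31 treated, and the mutant arrays 6.56, 6.50 and 6.55 and 6.28 and 6.75. The treated controls lay together at the bottom, and the treated mutants reached the level of the untreated mutants. Hnrnph1 was lower untreated by 0.81 ± 0.13 (adjusted p = 0.000753) and higher treated by 1.20 ± 0.14 (2.29-fold, adjusted p = 0.000559) in mutants. Hnrnpf read 9.54, 9.77 and 9.68 in untreated controls, 8.60, 7.96 and 9.09 in untreated mutants, 8.06, 8.10 and 8.18 in treated controls and 8.66 and 9.35 in treated mutants. On the probe set used, the untreated mutants were the most spread group, which did not hold for the other probe sets of Hnrnpf. Hnrnpf fell by 1.11 ± 0.25 untreated (adjusted p = 0.00776), a call lost after quantile normalization (-0.68, adjusted p = 0.0657), and its treated difference of 0.89 ± 0.28 was not called (adjusted p = 0.0773). Hnrnpul2, a relative of the scaffold protein hnRNP U, had another order. In untreated embryos Hnrnpul2 was at 7.71, 7.70 and 7.75 in controls and 7.37, 7.38 and 7.47 in mutants, and with α-amanitin at 8.17, 8.05 and 8.06 in controls and 7.51 and 7.74 in mutants. Its treated controls were the highest group. It was lower in mutants untreated by 0.31 ± 0.08 and treated by 0.47 ± 0.09 (adjusted p = 0.021 and 0.00999), the 1 member lower in both. The untreated difference turned to 0.16 after quantile normalization and was not called then (adjusted p = 0.299). It was lost as well with cyclic loess or the trend prior, and on leaving out untreated control replicate 1, 2 or 3 or untreated mutant replicate 1 or 2 (-0.29 to -0.32). The treated call was lost with the trend prior, with only the groups compared and without treated mutant replicate 1 (-0.35 to -0.47).

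The other hnRNPs lower in untreated mutants ranged from Hnrnpab (-1.18 ± 0.13, adjusted p = 9.17e-05) to Hnrnpll (-0.30 ± 0.09, adjusted p = 0.0389). They included Hnrnpu (-1.01 ± 0.15), Hnrnpd (-0.99 ± 0.11) and Hnrnpk (-0.59 ± 0.17). The calls of Hnrnpll and Hnrnpk were lost in 9 and 7 alternatives, the replicate block among them. Hnrnpa1 (-0.35 ± 0.20, adjusted p = 0.287), Hnrnpc (-0.35 ± 0.17, adjusted p = 0.227), Hnrnpul1 (0.08 ± 0.11, adjusted p = 0.698) and Hnrnpa0 were not called. Hnrnpa0 was at 4.83, 4.93 and 4.83 in untreated controls, 4.62, 4.90 and 4.83 in untreated mutants, 4.83, 4.83 and 4.98 in treated controls and 4.72 and 4.75 in treated mutants. It stayed between 4.62 and 4.98 and passed no test.

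The 10 further Sfrs-named genes ranged from the largest response of the set to none. Tra2b, an SR-like activator of exons, had the largest. The log2 values of Tra2b were 9.37, 9.13 and 8.78 in untreated controls and 6.33, 6.09 and 6.29 in treated ones, and 8.03, 7.25 and 7.70 in untreated mutants and 6.67 and 7.21 in treated ones. The untreated controls were highest and the treated controls lowest, and no groups overlapped. Tra2b was higher untreated than treated by 2.86 ± 0.21 in controls (7.25-fold, adjusted p = 1.84e-06) and by 0.72 ± 0.24 in mutants, which was not called (adjusted p = 0.154). Between genotypes it fell by 1.43 ± 0.21 untreated (adjusted p = 0.000609), and its interaction of -2.14 ± 0.32 was the largest of the 62 by the brightest probe sets (adjusted p = 0.0011). The other Tra2b probe set gave an interaction of -1.98 ± 0.41 (adjusted p = 0.00735). Pnisr, a nuclear protein rich in arginine and serine, was at 6.27, 6.30 and 5.66 in untreated controls, 4.99, 4.86 and 5.07 in untreated mutants, 4.55, 4.39 and 4.36 in treated controls and 5.05 and 5.41 in treated mutants. The mutant groups lay between the control groups. It was lower untreated by 1.10 ± 0.16 (adjusted p = 0.000594) and higher treated by 0.79 ± 0.18 (adjusted p = 0.0216), and the second was lost with array weights, with the replicate block, without treated control replicate 2 or 3 and without treated mutant replicate 2 (0.61 to 0.80).

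Srek1, a regulator that acts with other SR proteins, was at 6.63, 6.50 and 6.74 in untreated controls, 5.66, 5.45 and 5.83 in untreated mutants, 5.46, 5.21 and 5.46 in treated controls and 5.55 and 5.72 in treated mutants. The untreated controls stood apart, and Srek1 fell by 0.98 ± 0.12 (adjusted p = 0.000158). For Srek1ip1 the control arrays gave 6.05, 6.01 and 6.04 untreated and 6.08, 6.18 and 6.22 treated, and the mutant arrays 5.53, 5.22 and 5.60 and 5.98 and 6.43. Srek1ip1, named for its interaction with Srek1, was low in untreated mutants alone. It fell by 0.58 ± 0.13 there against untreated controls (adjusted p = 0.00726; -0.31 and 0.0895 after quantile normalization) and was lower than in treated mutants by 0.75 ± 0.14 (adjusted p = 0.0178). That second call was lost without treated mutant replicate 2 (-0.53, adjusted p = 0.117) and with only the groups compared. Clasrp, which interacts with a kinase of SR proteins, was at 4.46, 4.64 and 4.64 in untreated controls, 4.57, 4.74 and 4.57 in untreated mutants, 4.57, 4.57 and 4.46 in treated controls and 4.58 and 4.57 in treated mutants. Sugp2 was at 4.69, 4.74 and 4.68, 4.69, 4.76 and 4.69, 4.80, 4.66 and 4.69, and 4.59 and 4.74 in the same order. All groups of both genes overlapped near the array medians, and neither passed a test.

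Of the genotype comparisons, which share no array, 9 genes were lower untreated and higher with α-amanitin in mutants, which is 9 of the 41 lower and 9 of the 15 higher, and all 9 were called in the interaction. They were Srsf2, U2af2, Sf3b1, Sf3b5, Prpf8, Prpf31, Prpf38b, Hnrnph1 and Pnisr. The interaction equals the untreated genotype difference less the treated one, so opposite calls make it large and its call adds no separate evidence. Another 31 were lower untreated without a treated call, of which the interaction called 24, which also follows in part from how it is built. Some of them lay near the array medians in both treated groups and had little room to fall there. Examples are Hnrnpm (4.33 to 4.57) and Srsf7 (4.67 to 4.89). The part of this in the count was not tested. The interaction for Sf3b1 was -1.93 ± 0.23 (adjusted p = 0.000271), for Hnrnph1 -2.01 ± 0.19 (adjusted p = 0.000101) and for Prpf8 -1.84 ± 0.20 (adjusted p = 0.000195). With the inhibitor alone 5 genes were called higher, Sf3a3, Sf3b2, Sf3b3, Prpf6 and Prpf19, and the interaction called 4 of them. For the other, Sf3b3, it was -0.71 ± 0.22 (adjusted p = 0.055). In neither genotype comparison were 15 genes called. The share of all genes with each joint pattern was not counted, so these joint counts only describe the set.

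The treatment comparisons of the genotypes also share no array. Srsf1, Srsf2, Srsf7, U2af1 and Sf3b5 were higher untreated than treated in both, which is 5 of the 45 called in controls and all 5 called in mutants. Their mutant differences were 0.59 ± 0.13, 0.49 ± 0.12, 1.30 ± 0.14, 0.99 ± 0.15 and 0.81 ± 0.12, and their control differences 1.53 ± 0.12, 1.96 ± 0.10, 2.07 ± 0.12, 1.38 ± 0.13 and 2.63 ± 0.11. The interaction called 4 of the 5 and not U2af1 (-0.39 ± 0.20, adjusted p = 0.279). In mutants the call of Srsf7 held in every alternative; that of U2af1 was lost with only the groups compared (adjusted p = 0.109), and those of Srsf1 and Srsf2 in 10 and 15 alternatives. These included Srsf1 without untreated control replicate 2, untreated mutant replicate 1 or 3, treated control replicate 2 or treated mutant replicate 1 or 2 (0.51 to 0.63), and Srsf2 without any array but treated mutant replicate 2 (0.31 to 0.54). Another 40 genes were higher untreated in controls with no call in mutants, and 35 of these were called in the interaction. The interaction equals the mutant difference less the control one, so a large control difference beside a small mutant one makes it large. Its calls here, also those of 4 of the 5 above, thus add no separate evidence. The share of all genes with these joint calls was not counted.

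**Figure D5:**
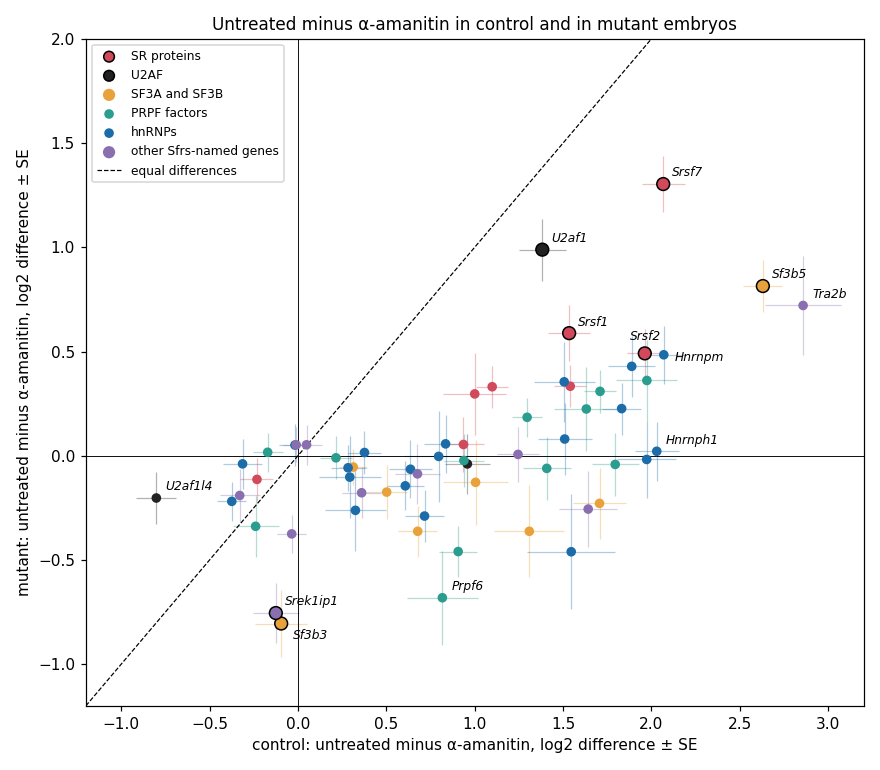
Untreated minus α-amanitin log2 difference in control (x axis) and mutant embryos (y axis) of 61 of the 62 genes, with standard errors, coloured by family. Ringed points were called in mutants and the dashed line marks equal differences. Most genes lie below the line and near 0 on the y axis, and Srsf7 has the highest mutant difference, 1.30.

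Other splicing genes, in lists of 105 measured genes outside the set, were set beside it. In untreated mutants 58 of the 105 were lower, against 16.6% of all genes, and 6 higher, against 8.72%, with a median difference of -0.48. With α-amanitin 27 were higher, against 6.95%, and 6 lower, against 4.02%, with a median of 0.26. These shares over all genes apply to each list that follows, and single calls in the small lists lie near them. All 6 U1 snRNP genes were lower untreated, among them Snrpc, the U1-C protein (-1.30 ± 0.18, adjusted p = 0.000417). Of 10 U2 snRNP genes 6 were lower untreated, and Snrpa1, the U2-A′ protein, had a difference of -1.72 ± 0.24 (adjusted p = 0.000441). Among 13 genes of the tri-snRNP 8 were lower untreated and 5 higher treated, and Snrnp200, the helicase that unwinds U4 from U6, was higher treated by 1.14 ± 0.12 (adjusted p = 0.000331). Of 24 genes of the Prp19 complex and the catalytic steps 12 were lower untreated and 8 higher treated. Crnkl1 and Syf2, which join the activated spliceosome, did both, with untreated differences of -0.98 ± 0.16 and -0.72 ± 0.11 and treated ones of 1.49 ± 0.18 and 1.30 ± 0.12 (adjusted p = 0.00124, 0.000713, 0.000702 and 0.000171). Of 9 minor spliceosome genes 5 were lower untreated and 1 higher treated. Of 7 SR kinases 2 were lower untreated and 2 higher treated, and Clk1, which phosphorylates SR proteins, was higher treated by 1.48 ± 0.23 (adjusted p = 0.00298). The 36 other regulators were mixed, 19 lower and 5 higher untreated, and 7 higher and 6 lower treated. Rbfox2, a tissue regulator of exons, was lower in mutants in both, by 0.33 ± 0.10 and 0.80 ± 0.11 (adjusted p = 0.0299 and 0.00111).

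In control embryos 74 of the 105 were higher untreated than treated, against 19.4% of all genes, and 9 lower, against 14.2%. In mutant embryos 12 were higher, against 2.59%, and 3 lower, against 1.09%. Cdc5l, a core protein of the Prp19 complex, was at 9.59, 9.64 and 9.19 in untreated controls, 9.21, 8.79 and 9.28 in untreated mutants, 4.74, 4.41 and 5.23 in treated controls and 5.79 and 6.84 in treated mutants. Both untreated groups stood far above both treated groups, with differences of 4.68 ± 0.28 in controls and 2.78 ± 0.31 in mutants (adjusted p = 3.82e-07 and 0.000876). Its untreated genotype difference of -0.38 ± 0.28 was not called (adjusted p = 0.429). The interaction called 66 of the 105 lower, against 13.6%, and 5 higher, against 4.2%.

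For 8 genes several probe sets carried the symbol, and they did not always read alike. All probe sets of Tra2b were lower in untreated mutants (-0.97 and -1.43), as were 3 of 4 for Hnrnpf (-1.35 to 0.23 over all 4) and 3 of 5 for Hnrnpa3 (-0.80 to -0.29). Of 3 probe sets of Srsf3 1 was higher untreated than treated in controls, with differences of -0.1214 to 1.0003, and its call was lost when the probe set with a RefSeq mRNA was used, an alternative chosen after seeing the data. The pair of U2af1 probe sets gave 0.84 and 1.38 for the same difference, both called, and 0.71 and 0.99 in mutants, where 1 was called. For Hnrnph2 and Hnrnpk 1 of the pair was lower in untreated mutants, and for Sf3b4 neither was. Genes with processed copies in the genome, common among hnRNPs, may share signal with them, and the deposited values do not separate these.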

How the data were processed

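RNA of 11 pools was measured on Affymetrix whole-transcript arrays. The deposited values run from 1.11 to 12.8 and were taken as log2. The submitters' processing notes name R 2.10.0 and affy. The sources used here name neither the authors' background correction and normalization nor a genome build, so no position is given for a probe set. Array medians were 4.45 to 4.55 and 75th percentiles 4.93 to 5.28. A probe set near the median has little room to fall.

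Of 34760 probe sets, the annotation gave 1 symbol to 23341, several to 1271 and none to 10148, and older symbols were updated through Entrez IDs in the RefSeq table. The brightest probe set by mean over 11 arrays stood for each of 21593 genes. All 11 arrays entered a single limma 3.58.1 fit in R 4.3.3, with 1 mean per group and eBayes (residual df 7, prior df 3.59). Called means a 2-sided p below 0.05 after Benjamini-Hochberg adjustment over all probe sets. Differences are given with limma's standard error, and a fold is the size of the ratio on the linear scale. The single-gene exact permutation test was 2-sided. The code was tested on simulated data.

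Alternatives were quantile normalization, median centring, cyclic loess, the brighter 50% of probe sets, a trend prior, array weights, the replicate number as a block, only the groups compared, the mean of a gene's probe sets, and leaving out each array. The use of the probe set with a RefSeq mRNA was added after seeing the data. The members and lists were chosen with earlier results of these data known. Values on every array are given for up to 3 members per family and comparison with the largest called difference and non-overlapping groups (no such condition for the interaction), all U2AF genes, members called against their family, and the 3 smallest interactions. The values of 1 member are not reported here, though the counts and medians include it. The titles do not state that replicate numbers pair the arrays, and the main fit did not pair them.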

Additional observations from a re-analysis of the deposited data

Results flagged for a closer look

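For 24 of the 31 members described on every array, the untreated minus treated difference was called unlike between genotypes. The call was by the interaction term of limma (the difference in mutants less that in controls, log2, adjusted p below 0.05). In 23 of the 24 the mutant difference was the smaller or the more negative one. Some of the 31 were picked for a large called interaction, so this count is no result about the set. Over all 62 genes the interaction called 39 lower and 1 higher, against 13.6% and 4.2% of all genes. Among the SR proteins the interaction was -1.47 for Srsf2, -1.21 for Srsf6, -0.95 for Srsf1, -0.77 for Srsf11 and -0.76 for Srsf7. Among the SF3 subunits the interaction was -1.93 for Sf3b1, -1.82 for Sf3b5 and -1.67 for Sf3a3. Among the PRPF factors the interaction was -1.84 for Prpf8, -1.61 for Prpf38a, -1.50 for Prpf6, -1.40 for Prpf4, -1.37 for Prpf19 and -1.11 for Prpf4b. Among the hnRNPs the interaction was -2.01 for Hnrnph1, -2.01 for Hnrnpf, -1.99 for Hnrnpa2b1, -1.61 for Hnrnpl and -1.59 for Hnrnpm. Among the further Sfrs-named genes the interaction was -2.14 for Tra2b, -1.90 for Pnisr and -1.24 for Srek1. U2af2 had -0.998, and U2af1l4 alone was positive, at 0.60. After quantile normalization Srsf11 (-0.37, adjusted p = 0.0654), Srsf7 (-0.32, adjusted p = 0.301) and U2af2 (-0.57, adjusted p = 0.104) were not called. Srsf7 was also lost without treated mutant replicate 2 (-0.70, adjusted p = 0.062), and U2af1l4 in the 9 alternatives given above. All of these rest on the pair of treated mutant arrays, of which replicate 2 held 14.2% of probe sets over log2 6 and replicate 1 held 11.0%. Without replicate 2 the interaction called 33 of the 62 genes lower, and without replicate 1 it called 43. The part of this gap in the interaction was not tested.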

How the results depend on the processing

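In each comparison the more frequent direction kept its count within 1.5 times under the alternatives run over all arrays, except in mutants with and without the inhibitor and, with arrays left out, between the treated genotypes. Quantile normalization gave 3 genes higher and a median of -0.30 between untreated genotypes, 6 lower between treated ones, 9 lower and a median of 0.55 for treatment in controls, 5 lower in mutants, and 5 higher with a median of -0.50 for the interaction. Cyclic loess gave 2 higher and a median of -0.50 between untreated genotypes, 4 lower between treated ones, and 8 higher with a median of 0.0502, against -0.02, for treatment in mutants. Median centring gave 3 higher there. With the brighter 50% of probe sets, which kept 60 of the 62 genes, 2 were lower between treated genotypes and 4 in each treatment comparison. The trend prior gave 0 lower between treated genotypes, 3 higher for treatment in mutants and 0 higher for the interaction, and array weights gave 3 and 0 for the last 2. Fitting only the groups compared gave 2 higher between untreated and 0 lower between treated genotypes, and 1 higher and 0 lower for treatment in mutants. The cause of these shifts was not tested.

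With the replicate block 2 genes were lower between treated genotypes, against 1, and the calls of Hnrnpk, Hnrnpll, Hnrnpr, Pnisr, Prpf31, Prpf39, Srsf2 and U2af2 were lost in at least 1 comparison. In their deviations from the group means, same-numbered arrays of different groups correlated at -0.223 to 0.154 over 15 pairs, 3 of them over 0.1. Between groups of 3 arrays these correlations were 0.029 to 0.154, and those of different-numbered arrays -0.119 to 0.037. The 2 treated mutant arrays deviate by equal and opposite amounts, so their correlations with any array differ only in sign. The labels do not say that the number pairs arrays, and the main fit did not use it. Whether arrays of the same number share an effect was not tested.

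Leaving out 1 array gave 34 to 47 lower and 1 to 2 higher between untreated genotypes (medians -0.67 to -0.53), 10 to 23 higher and 0 to 1 lower between treated ones (0.13 to 0.32), 44 to 46 higher and 2 to 3 lower for treatment in controls (0.88 to 1.02), 3 to 4 higher and 0 to 6 lower for treatment in mutants (-0.12 to 0.0929), and 33 to 43 lower and 0 to 1 higher for the interaction (-1.01 to -0.75). The extremes for treatment in mutants came without treated mutant replicate 1 (6 lower, median -0.12) and replicate 2 (0 lower, median 0.0929). Of 6438 values of single genes, 6127 kept their call, 178 lost it, 132 gained one and 1, Hnrnpul2 between untreated genotypes after quantile normalization, turned from -0.31 to 0.16. Of the calls, 27 of 41 lower between untreated genotypes, 9 of 15 higher between treated ones, 39 of 45 higher for treatment in controls, 1 of 5 higher and 0 of 2 lower for treatment in mutants, and 29 of 39 lower for the interaction held in every alternative that tested them.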
